A study of Mus musculus with 480 samples.

Results

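A set of 10 chemokine-related genes was followed across single cells of the mouse lung epithelium: 9 chemokine ligands (Cxcl1, Cxcl2, Cxcl5, Cxcl10, Cxcl16, Cxcl17, Cx3cl1, Ccl2 and Ccl20) and the atypical receptor Ccrl2. They are 10 of the 53379 genes in the count table and were selected by name, with the differences of Cxcl1, Cxcl2 and Ccrl2 between reporter lines already known. Those differences are therefore given as descriptions. The study sorted 480 tdTomato-positive epithelial cells into single wells of 5 plates, 160 from each of 3 lines, and made a full-length cDNA library from each cell. BASCs-Tracer mice carry Sftpc-DreER, Scgb1a1-CreER (spelled Scgba1a1-CreER in the genotype labels) and R26-RSR-LSL-tdTomato, so that a cell turns red only after both recombinases have acted. Scgb1a1-TD mice carry Scgb1a1-CreER with R26-tdTomato, and Sftpc-TD mice carry Sftpc-DreER with R26-RSR-tdTomato. The Scgb1a1 promoter is active in club cells and the Sftpc promoter in alveolar type 2 (AT2) cells, and both recombinases act only after tamoxifen is given; age and tamoxifen dosing are not stated in the labels used here. The labels annotate each cell as a bronchioalveolar stem cell (BASC), which expresses genes of both lineages, or as a club, AT2 or ciliated cell.

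Chemokines are small secreted or membrane-anchored proteins that attract leukocytes along a gradient. Cxcl1, Cxcl2 and Cxcl5 carry a Glu-Leu-Arg motif and attract neutrophils through the receptor CXCR2, and their genes are classic targets of NF-kB downstream of IL-1, TNF, IL-17 and Toll-like receptors. Cxcl10 is induced by interferon and attracts activated T cells through CXCR3. Cxcl16 and Cx3cl1 are made as membrane proteins and are shed by the proteases Adam10 and Adam17, and their receptors are CXCR6 and CX3CR1. Cxcl17 is a chemokine of mucosal surfaces. Ccl2 attracts monocytes through CCR2, and Ccl20 attracts CCR6-bearing lymphocytes and dendritic cells. Ccrl2 binds chemerin, the product of Rarres2, without the usual G-protein signal.

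No label names an animal, so every line was taken as 1 sample. Lines and sub-types were therefore compared without a test, since cells are not replicates. Levels are reads summed over the cells of a group and given per 1000000 gene-assigned reads of the same cells (CPM). Intervals after a CPM value are exact Poisson and those after a share of cells are exact Clopper-Pearson, both 95% and both for counting error alone; the spread between cells, given beside them, was far wider. The table held 492096494 reads, with 3379 to 3781974 per cell and a median of 1000460. Markers were read beside the annotated sub-types. Foxj1, a regulator of ciliogenesis, was at 349 CPM in ciliated cells from Scgb1a1-TD and at 2.35 in its club cells. Sftpc was at 174513 CPM in BASCs from BASCs-Tracer and 14297 in its club cells, with Scgb1a1 at 13416 and 139724 CPM. In BASCs against club cells, the 8 listed club markers had a median log2 ratio of -3.80 in BASCs-Tracer and -7.00 in Scgb1a1-TD. Over all measured genes these medians were 0.17 and -0.12. Between BASCs from BASCs-Tracer and Scgb1a1-TD, 4 of 8 club markers were 2-fold or more higher in BASCs-Tracer, beside 21.1% of all genes. Of the 8 listed AT2 markers 0 differed by that much. The sub-type labels may rest on these same counts. The lines also differed in genes of sex and of the circadian clock. Xist was at 6.22 CPM in BASCs from BASCs-Tracer, 3.30 in BASCs from Scgb1a1-TD and 218 in AT2 cells from Sftpc-TD, while the Y-linked Ddx3y was at 72.8, 80.8 and 0.0416 CPM. The clock gene Nr1d1 was at 172, 37.5 and 161 CPM in the same groups. Both BASC groups were thus low in Xist and high in Ddx3y, and the AT2 cells were the reverse. Line, animal and time of collection cannot be told apart, and neither can sex where Sftpc-TD is compared.

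The members Cxcl5, Cxcl1, Cxcl2 and Cxcl10 lie on chromosome 5 of GRCm38, by GENCODE M21, with Cxcl5 at chr5:90759360-90761624, Cxcl1 at chr5:90891241-90893115, Cxcl2 at chr5:90903871-90905938 and Cxcl10 at chr5:92346638-92348889. Cxcl1 and Cxcl2 are neighbours on the plus strand with 10755 bases between them. Cxcl16 (chr11:70453983-70459984) and Ccl2 (chr11:82035571-82037453) lie on chromosome 11, Cxcl17 on chromosome 7 (chr7:25400053-25412886), Cx3cl1 on chromosome 8 (chr8:94772009-94782427), Ccl20 on chromosome 1 (chr1:83116766-83119167) and Ccrl2 on chromosome 9 (chr9:111054486-111057519). Promoter entries were matched for 6 of the 10 members (Ccl20, Cxcl1, Cxcl2, Cxcl10, Cx3cl1 and Ccrl2) in RefSeq on GRCm38.p6. The stretches below end just before the start of the gene and read 5′ to 3′ on the gene's strand. Those given are of the 5 members with a match to the NF-kB consensus. Capitals mark matches to the NF-kB consensus and, at the left of Cxcl10, to the interferon-stimulated response element (ISRE, here GAAAGTGAAA). They are chr5:90891125-90891240 for Cxcl1 and chr5:90903779-90903870 for Cxcl2, both plus strand, chr5:92348890-92349109 for Cxcl10, minus strand, chr1:83116666-83116765 for Ccl20, plus strand, and chr9:111057520-111057598 for Ccrl2, minus strand.
Cxcl1: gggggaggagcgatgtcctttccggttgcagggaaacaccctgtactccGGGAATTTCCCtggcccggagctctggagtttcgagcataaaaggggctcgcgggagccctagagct
Cxcl2: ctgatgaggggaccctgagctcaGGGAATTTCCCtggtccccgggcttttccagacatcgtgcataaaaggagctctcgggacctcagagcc
Cxcl10: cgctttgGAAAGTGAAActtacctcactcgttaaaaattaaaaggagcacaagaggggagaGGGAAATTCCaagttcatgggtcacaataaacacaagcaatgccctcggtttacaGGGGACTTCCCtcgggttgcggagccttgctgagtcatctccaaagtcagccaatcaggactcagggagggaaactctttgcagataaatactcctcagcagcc
Ccl20: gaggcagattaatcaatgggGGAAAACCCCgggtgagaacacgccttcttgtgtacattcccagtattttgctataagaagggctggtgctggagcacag
Ccrl2: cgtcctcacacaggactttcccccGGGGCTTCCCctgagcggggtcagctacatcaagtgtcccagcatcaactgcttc

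Cxcl1 and Cxcl2 share a run of 14 bases, GGGAATTTCCCTGG, which begins 71 bases before the RefSeq start of Cxcl1 and 97 bases before that of Cxcl2. The NF-kB consensus was searched on both strands over 250 bases before each start, and overlapping or palindromic matches were kept. It was matched in 5 of the 6 members with an entry. Ccrl2 had 3 entries, and only the first of them, shown above, held a match. Counted by single promoters rather than by gene, the motif was matched in 7.25% of 32851 promoters of that length. The interferon-stimulated response element was matched in Cxcl10, 213 bases before the start, and in 2.98% of all promoters. The AP-1 motif TGANTCA was matched in Cxcl10 and in 6.75% of promoters, and TATAAA in Cx3cl1 and in 12.4%. These matches are letters in a window and were not tested as sites.

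Cxcl1, a neutrophil attractant, was the most abundant of the 3 Glu-Leu-Arg chemokines in the BASCs and club cells from BASCs-Tracer and in Sftpc-TD, and was low throughout Scgb1a1-TD. In BASCs from BASCs-Tracer (85 on plate 1 and 53 on plate 2) its summed level was 161 CPM (158.97 to 163.8), with single cells from 0 to 2400 CPM and a median of 5.54. In AT2 cells from Sftpc-TD (60 on plate 4 and 89 on plate 5) it was 110 CPM (108.4 to 111.4), with a median of 0.380 and a highest cell of 1546. BASCs from Scgb1a1-TD held 11.9 CPM (10.9 to 13.05, 38 cells, median 0, highest 122.9) and its 97 club cells 5.07 CPM (4.64 to 5.54, median 0, highest 385). In those club cells 67.5% of the per-cell sum came from 1 cell, and the level without it was 1.12 CPM. Club cells from BASCs-Tracer, 15 in number, were at 276 CPM, and the 11 BASCs from Sftpc-TD at 130 CPM, where 3 cells at 160, 442 and 519 CPM stood over 8 cells at no more than 1.38. The single-cell values of all groups overlapped at and near 0, and the lines differed both in how many cells were high and in how high these were. The median of the cells at 10 CPM or more was 182 CPM in BASCs from BASCs-Tracer, 296 CPM in AT2 cells from Sftpc-TD and 99.2 CPM in BASCs from Scgb1a1-TD.

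Because reads at low levels were common, a cell was counted as carrying a gene at 10 CPM or more. In ciliated cells, for example, 9 of 24 (37.5%) had a Cxcl1 read although their summed level was 0.590 CPM and no cell reached 10 CPM. Whether such reads were stray or low expression was not tested. After each cell was thinned to 100000 reads, leaving out 12 shallower cells (7 from BASCs-Tracer, 4 from Scgb1a1-TD and 1 from Sftpc-TD), 12.5% of ciliated cells had a Cxcl1 read. The thinned share was 51.1% in BASCs from BASCs-Tracer (77.5% without thinning), 29.1% in AT2 cells from Sftpc-TD (52.3%), 24.3% in BASCs from Scgb1a1-TD (36.8%) and 7.45% in its club cells (36.1%). The last of these lies below the ciliated share and is not read as expression in these cells at large, although 3 of them were at 385, 82.2 and 33.3 CPM. At 10 CPM, Cxcl1 was carried by 59 BASCs from BASCs-Tracer (42.8%, 34.4 to 51.5), 36 AT2 cells from Sftpc-TD (24.2%, 17.5 to 31.9), 5 of 38 BASCs from Scgb1a1-TD (13.2%, 4.41 to 28.1), 3 of 97 of its club cells (3.09%) and 0 of 24 ciliated cells, which allows a share of up to 12.5% at 3 cells of 24. Of the 59 Cxcl1-carrying BASCs, 48 were above 100 CPM, and of the 36 AT2 cells, 33 were.

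**Figure D1:**
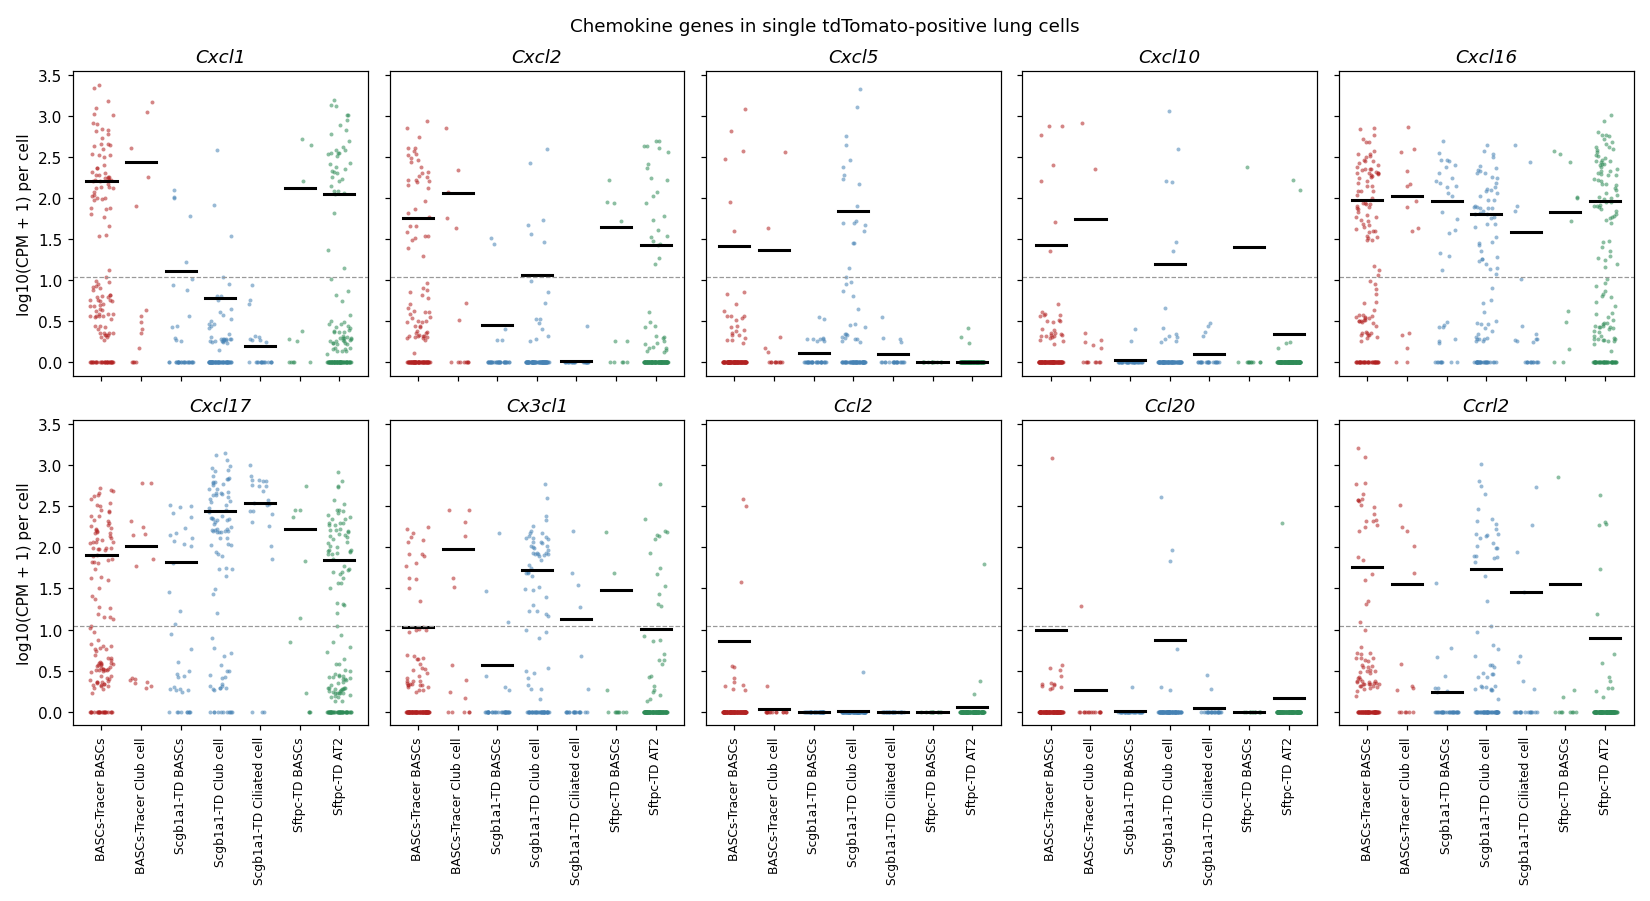
Each point is 1 cell, plotted as log10(CPM + 1) of the named gene against line and annotated sub-type for the 7 groups of 11 or more cells (red BASCs-Tracer, blue Scgb1a1-TD, green Sftpc-TD; points are spread sideways at random). The black bar is the summed CPM of the group and the dashed line is 10 CPM; Cxcl1 separates into a band of high cells and a band near 0, with 59 BASCs from BASCs-Tracer and 3 of 97 club cells from Scgb1a1-TD above the line.

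Cxcl2, a neutrophil attractant encoded next to Cxcl1, had the same order of lines among the larger groups of alveolar type. It was at 56.4 CPM in BASCs from BASCs-Tracer (54.96 to 57.8, median 0.918, highest cell 861) and 25.5 CPM in AT2 cells from Sftpc-TD (24.8 to 26.2, median 0, highest 497). BASCs from Scgb1a1-TD were at 1.81 CPM (1.42 to 2.28, median 0, highest 31.6) and its club cells at 10.4 CPM (9.76 to 11.1, median 0, highest 396). Cells at 10 CPM made up 25.4% (18.3 to 33.5) of BASCs from BASCs-Tracer, 15.4% (10.04 to 22.3) of AT2 cells, 5.26% of BASCs and 6.19% of club cells from Scgb1a1-TD, and none of the 24 ciliated cells. The 6 cells from BASCs-Tracer annotated as AT2 were at 383 CPM, but 77.7% of their per-cell sum came from 1 cell and the level without it was 83.3 CPM.

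Plates divided the lines in part, so values on shared plates are given side by side. On plate 2, Cxcl1 was at 110.9 CPM in 53 BASCs from BASCs-Tracer and 2.62 CPM in 5 BASCs from Scgb1a1-TD, and at 391.8 CPM in 8 club cells against 2.03 CPM in 22 club cells. On plate 4 it was at 81.8 CPM in 60 AT2 cells from Sftpc-TD and 16.8 and 0.355 CPM in 10 BASCs and 15 club cells from Scgb1a1-TD. The 7 club cells from BASCs-Tracer on plate 1 were at 58.4 CPM, of which 1.86 CPM remained without 1 cell. The 4 BASCs from Sftpc-TD on plate 4 held 3 Cxcl1 reads (0.598 CPM), below the 10 BASCs from Scgb1a1-TD on that plate, so the order over all plates was seen there for AT2 cells but not for BASCs, while on plate 2 it was seen for BASCs and club cells. Cxcl2 on plate 2 was at 69.3 CPM in BASCs from BASCs-Tracer and 0.523 CPM in those from Scgb1a1-TD. In the club cells from BASCs-Tracer it depended on the plate, at 0.997 CPM in 7 cells of plate 1 and 174 CPM in 8 cells of plate 2. No plate held both BASCs-Tracer and Sftpc-TD, so for that pair plate and line cannot be told apart. On the plates that held 1 line only, Cxcl1 was at 192 CPM in BASCs on plate 1, at 124.2 CPM in AT2 cells on plate 5 and at 10.3 and 7.01 CPM in BASCs and club cells on plate 3. Cxcl2 was at 48.5, 21.9, 1.17 and 6.33 CPM in the same sets.

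**Figure D2:**
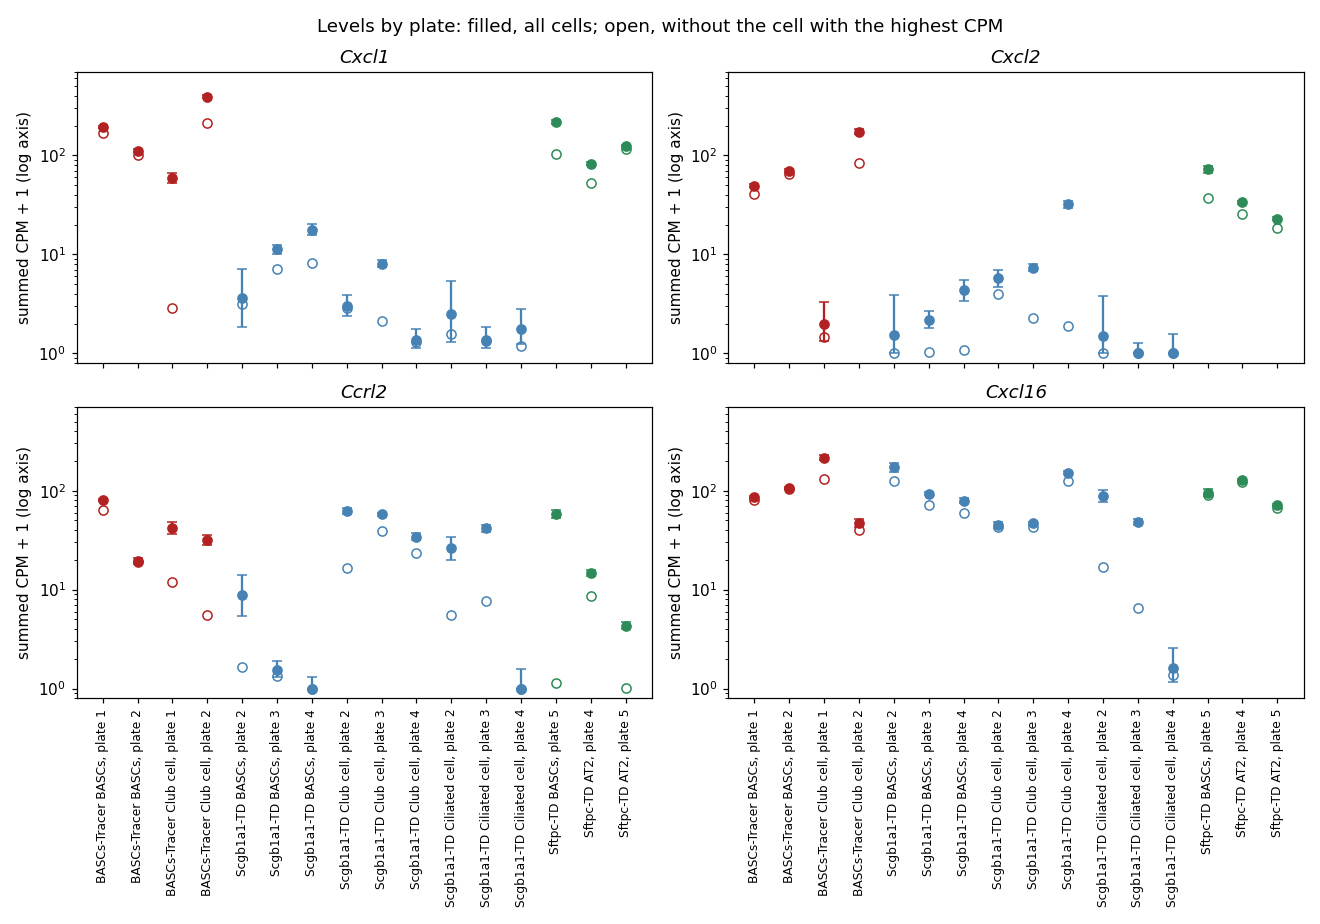
Summed CPM + 1 on a log axis for Cxcl1, Cxcl2, Ccrl2 and Cxcl16, by line, sub-type and plate (5 or more cells each; colours as in the plot of single cells). Filled points are all cells with the 95% Poisson interval, and open points leave out the cell with the highest CPM; Cxcl1 is at 58.4 CPM or more in every set from BASCs-Tracer and Sftpc-TD and at 16.8 CPM or less in every set from Scgb1a1-TD, though the lowest of the former, 7 club cells on plate 1, is at 1.86 CPM without 1 cell and the 4 BASCs from Sftpc-TD on plate 4 are too few to plot. Cxcl16 shows no such division.

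Cxcl5, the third neutrophil attractant, did not follow Cxcl1. It was highest in club cells from Scgb1a1-TD, at 68.5 CPM (66.8 to 70.1), with a median of 0, a highest cell of 2160 CPM and 18 of 97 cells at 10 CPM (18.6%, 11.4 to 27.7). This differed by plate, at 2.75, 84.3 and 66.8 CPM on plates 2, 3 and 4, and on plate 2 it lay below BASCs and club cells from BASCs-Tracer (6.21 and 30.3 CPM). BASCs from BASCs-Tracer were at 24.97 CPM, but only 6 cells (4.35%) were at 10 CPM, 44.7% of the per-cell sum came from 1 cell, and the level without it was 13.1 CPM. Its club cells were at 22.4 CPM, of which 2.92 CPM remained without 1 cell. In AT2 cells from Sftpc-TD there were 3 reads (0.0156 CPM) and in its BASCs none, with BASCs from Scgb1a1-TD at 0.277 CPM and ciliated cells at 0.272 CPM. Of the 14 cells at 100 CPM of Cxcl5, 10 were annotated as club cells and 4 as BASCs.

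Cxcl10, the interferon-induced member, was carried by few cells in every group. Levels were 26.1 CPM in BASCs from BASCs-Tracer (7 cells at 10 CPM, 95.6% of the per-cell sum in 5 cells), 55.2 CPM in its club cells (2 of 15), 14.8 CPM in club cells from Scgb1a1-TD (6 of 97, highest cell 1158), 24.2 CPM in BASCs from Sftpc-TD (1 of 11) and 1.22 CPM in AT2 cells (2 cells). BASCs from Scgb1a1-TD held 2 reads in 38 cells. The 24.2 CPM in BASCs from Sftpc-TD came from 1 cell at 241 CPM, and the other 10 had no read. Among 12 interferon response genes, 10 reached 5 CPM in some group. Between BASCs from BASCs-Tracer and Scgb1a1-TD, 4 of 6 measured were 2-fold or more higher and 0 lower, with a median log2 ratio of 2.19, beside 21.1% and 10.2% of all measured genes and their median of 0.18. Those with the highest levels in any group, Usp18, Irf1, Oasl2 and Isg15, were at 10.05, 141.6, 7.97 and 2.47 CPM in BASCs from BASCs-Tracer, at 0.176, 60.3, 4.78 and 1.41 CPM in BASCs from Scgb1a1-TD and at 7.11, 85.98, 12.2 and 3.05 CPM in club cells from Scgb1a1-TD. Usp18 and Isg15 owe their places in this order to groups whose values are not given here.

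Cxcl16, a membrane-anchored ligand, was the most evenly spread member. It was at 93.1 CPM (91.2 to 94.9) in BASCs from BASCs-Tracer, 91.7 CPM (88.8 to 94.7) in BASCs from Scgb1a1-TD, 89.8 CPM (88.4 to 91.1) in AT2 cells and 67.2 CPM in BASCs from Sftpc-TD, 104.8 CPM in club cells from BASCs-Tracer, 63.7 CPM in those from Scgb1a1-TD and 37.2 CPM in ciliated cells. The medians of single cells ran from 0.385 CPM in ciliated cells to 76.6 CPM in the club cells from BASCs-Tracer, and the highest cells from 374 to 1024 CPM. Of BASCs from BASCs-Tracer 50% were at 10 CPM (41.4 to 58.6), of BASCs from Scgb1a1-TD 57.9% (40.8 to 73.7), of its club cells 50.5% (40.2 to 60.8) and of AT2 cells 45.6% (37.5 to 53.99), and these intervals overlap. Ciliated cells had 16.7% (4.74 to 37.4), and their level without 1 cell was 11.9 CPM. Within a group it differed between plates. AT2 cells were at 127.4 CPM on plate 4 and 70.5 CPM on plate 5, and club cells from Scgb1a1-TD at 44, 45.6 and 151.3 CPM on plates 2, 3 and 4.

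Cx3cl1, the other membrane-anchored ligand, was higher, over all plates, in club cells than in the BASCs or ciliated cells of the same line. Club cells from Scgb1a1-TD were at 52.5 CPM (51.02 to 53.9, median 2.40, highest 598) with 45 of 97 at 10 CPM (46.4%, 36.2 to 56.8). Those from BASCs-Tracer were at 93.6 CPM with 6 of 15 (40%, 16.3 to 67.7). On plate 4 the club cells from Scgb1a1-TD were at 12.3 CPM, below the ciliated cells there (34.3 CPM), beside 70.6 and 58.6 CPM on plates 2 and 3. The 6 AT2 cells from BASCs-Tracer were at 110.1 CPM, from 2 cells at 319.6 and 297 CPM and 4 cells at 1.84 CPM or less. In BASCs from BASCs-Tracer it was at 9.86 CPM with 10.9% of cells (6.21 to 17.3), in AT2 cells from Sftpc-TD at 9.26 CPM with 9.40% (5.23 to 15.3) and in BASCs from Scgb1a1-TD at 2.74 CPM with 7.89% (1.66 to 21.4). Ciliated cells were at 12.26 CPM. The 29.04 CPM in BASCs from Sftpc-TD fell to 2.80 CPM without 1 cell. Of the sheddases, Adam10 was at 41.3, 37.9, 48.03 and 40.4 CPM and Adam17 at 43.5, 41.2, 31.3 and 21.7 CPM in BASCs from BASCs-Tracer, BASCs and club cells from Scgb1a1-TD and AT2 cells.

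Cxcl17, the mucosal chemokine, was highest in the airway cells from Scgb1a1-TD. Ciliated cells were at 347 CPM (340 to 355), with single cells from 0 to 1012 CPM, a median of 342 and 21 of 24 cells at 10 CPM (87.5%, 67.6 to 97.3). Club cells were at 275 CPM (271 to 278), with a median of 155.5, a highest cell of 1418 and 68 of 97 cells at 10 CPM (70.1%, 59.96 to 78.98). AT2 cells from Sftpc-TD were at 68.8 CPM with a median of 1.48, BASCs from Scgb1a1-TD at 65.8 CPM with 2.58, BASCs from BASCs-Tracer at 79.9 CPM with 4.90 and BASCs from Sftpc-TD at 166 CPM with 12.7. Club cells from BASCs-Tracer were below those from Scgb1a1-TD, at 103.9 CPM with a median of 58.3, but 230.8 CPM on plate 1 and 36.7 CPM on plate 2. Ciliated cells were at 304 to 366 CPM and club cells from Scgb1a1-TD at 248 to 332 CPM on plates 2, 3 and 4. Among the members, Cxcl17 was at 10 CPM in the largest share of ciliated and club cells from Scgb1a1-TD. Cxcl16 was carried by more cells than Cxcl17 in BASCs from BASCs-Tracer (69 against 61) and Scgb1a1-TD (22 against 16). The same held in AT2 cells from Sftpc-TD (68 against 57). The span of an antisense gene, 4732471J01Rik, covers all 12834 bases from start to end of Cxcl17, of which 761 are exon. The library kit does not keep the strand. Overlap of exons was not measured, so whether reads of the pair can be told apart is not known. On the opposite strand the span of Art3 covers all 2252 bases of Cxcl10 and that of Gm17268 all 1883 bases of Ccl2, while that of Zmynd15 covers 552 bases of Cxcl16. The overlapping genes were listed at 0.00203 to 3.43 CPM over all cells.

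Ccl2 and Ccl20, the CC members, came from very few cells. Ccl2 was at 6.28 CPM in BASCs from BASCs-Tracer, where 3 cells (2.17%) were at 10 CPM and 2 at 100 CPM, and at 0.125 CPM in AT2 cells (1 cell). Its highest cell, at 383 CPM, also held 2701 CPM of leukocyte markers. No Ccl2 read was found in BASCs or ciliated cells from Scgb1a1-TD or BASCs from Sftpc-TD, which allows up to 0.0755, 0.136 and 0.239 CPM. Ccl20 was at 8.85 CPM in BASCs from BASCs-Tracer, with 98.6% of the per-cell sum in 1 cell at 1226 CPM and 0.123 CPM without it. It was at 6.52 CPM in club cells from Scgb1a1-TD (3 of 97 at 10 CPM, 2.01 CPM without the highest cell) and at 0.458 CPM in AT2 cells, all from 1 cell. For these 2 genes the levels of a group describe single cells rather than the group.

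Ccrl2, the atypical receptor, was carried in BASCs from BASCs-Tracer and club cells from Scgb1a1-TD and scarcely in the BASCs of the latter. BASCs from BASCs-Tracer were at 56.9 CPM (55.4 to 58.3, median 0, highest 1619) with 25 cells at 10 CPM (18.1%, 12.1 to 25.6). Club cells from Scgb1a1-TD were at 53.5 CPM (52.05 to 54.97, median 0, highest 1042) with 26 of 97 (26.8%, 18.3 to 36.8). BASCs from Scgb1a1-TD were at 0.730 CPM (0.489 to 1.05, highest 35.95) with 1 of 38 (2.63%, 0.0666 to 13.8). AT2 cells were at 6.84 CPM with 6 cells (4.03%, 1.49 to 8.56), club cells from BASCs-Tracer at 34.4 CPM with 5 of 15 and ciliated cells at 27.4 CPM, or 6.43 CPM without 1 cell. The level in BASCs from BASCs-Tracer was 80.04 CPM on plate 1 and 18.6 CPM on plate 2, while the shares at 10 CPM were 21.2% (13.1 to 31.4) and 13.2% (5.48 to 25.3). On plate 2 the 5 BASCs from Scgb1a1-TD were at 7.85 CPM, nearly all from 1 cell. The ligand gene of Ccrl2, Rarres2, and the chemerin receptors Cmklr1 and Gpr1 were below 5 CPM in every group of 5 or more cells.

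**Figure D3:**
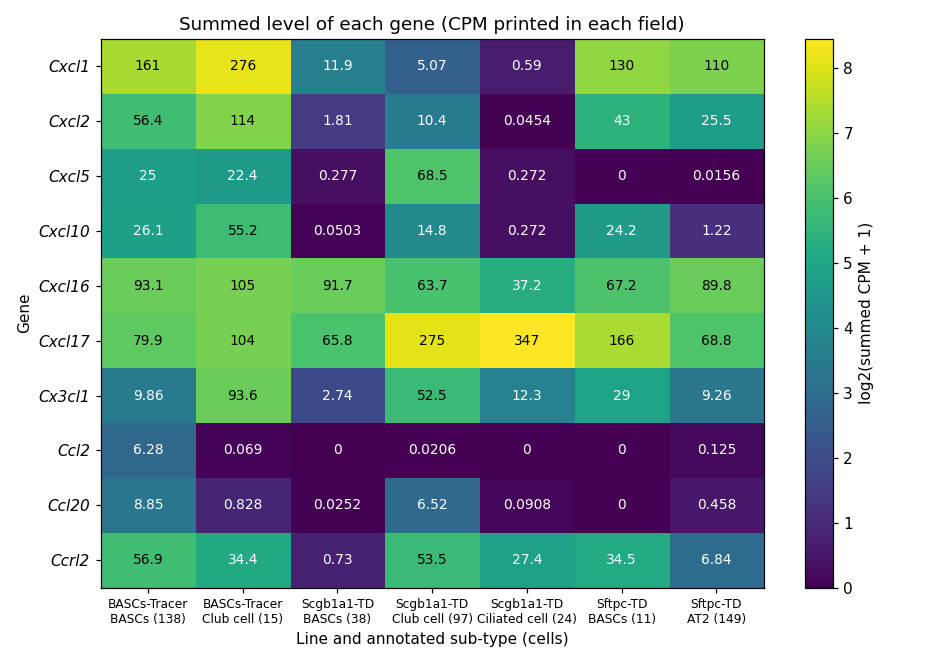
Summed level of the 10 genes in the 7 groups of 11 or more cells; colour is log2(CPM + 1) and the printed value is CPM. The row of Cxcl16 is nearly even (37.2 to 104.8 CPM), the row of Cxcl1 is lowest in the 3 groups from Scgb1a1-TD (0.590 to 11.9 CPM) and the row of Cxcl17 is brightest in its ciliated and club cells.

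Per kilobase of exon, which allows genes to be compared, the level in BASCs from BASCs-Tracer was 105.1 CPM per kilobase for Cxcl17 and 86.1 for Cxcl1, followed by Cxcl16 at 30.8, Cxcl2 at 27.3 and Ccrl2 at 21.9. The order Cxcl17, Cxcl1, Cxcl16, Cxcl2 was the same in AT2 cells from Sftpc-TD (90.4, 58.6, 29.7 and 12.3 CPM per kilobase). In club cells from Scgb1a1-TD Cxcl17 led at 361, followed by Cxcl5 at 36.8, Cxcl16 at 21.1 and Ccrl2 at 20.6, and Cxcl1 stood ninth of 10 at 2.71. The place of Cxcl5 did not hold on plate 2, where it lay below Cxcl16. In BASCs from BASCs-Tracer, the per-kilobase levels of Cxcl16, Cxcl2 and Ccrl2 overlapped between plates 1 and 2, so their order is not settled. Nor is that of the leading pair, since Cxcl1 was at 102.4 and Cxcl17 at 93.7 on plate 1 and at 59.2 and 123.7 on plate 2. A cell from BASCs-Tracer annotated as BASC carried a median of 2 of the 10 genes at 10 CPM, and 51 of them (36.96%) carried 3 or more. Of AT2 cells 13.4% did, of BASCs and club cells from Scgb1a1-TD 10.5% and 46.4%, and of ciliated cells 4.17%. The share was highest in the small groups of 15 club cells from BASCs-Tracer (60%) and 11 BASCs from Sftpc-TD (54.5%). No cell of any group carried more than 6.

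In 7 pairs of groups a gene was counted as past the limit when its log2 ratio of CPM + 1 was 2-fold or more with at least 5 CPM in the higher group. Between BASCs from BASCs-Tracer and BASCs from Scgb1a1-TD, 8 of 10 members were 2-fold or more higher in BASCs-Tracer and 0 lower, where 21.1% of 10447 measured genes were higher and 10.2% lower. The median log2 ratio of the members was 3.46 (3.999 with Ccl2, without a read in the second group, at its bound), beside 0.18 over all those genes, and since the members were chosen with part of this contrast known nothing is read from the excess. Log2 ratios were 3.65 for Cxcl1, 4.35 for Cxcl2, 4.35 for Cxcl5, 4.69 for Cxcl10, 1.54 for Cx3cl1, 2.86 for Ccl2, 3.26 for Ccl20 and 5.06 for Ccrl2. As plain ratios of CPM, Cxcl1 was 13.5 times as high (12.4 to 14.9), Cxcl2 31.1 times (24.7 to 39.8) and Ccrl2 77.9 times (54.2 to 116.5), intervals that again hold counting error only. Ccl2, with no read in BASCs from Scgb1a1-TD, was at least 83.2-fold higher against a floor of 3 reads over the group, where the exact counting interval of the ratio began at 67.4 and 93.6% of the per-cell sum came from 2 cells. Cxcl16 (0.02) and Cxcl17 (0.28) were within 2-fold. With 10 CPM added the count fell to 5 of 10, and without the highest cell of each group the log2 ratio of Ccl20 was 0.17 and that of Ccl2 2.01. Without plate 1 the ratio of Ccl2 was 0.17 and that of Cx3cl1 -0.30, and without plate 2 that of Ccl20 was 0.15. On plate 2 alone, with 5 BASCs from Scgb1a1-TD, Cx3cl1 turned to -3.39, Ccrl2 was at 1.15 and Cxcl1 and Cxcl2 were at 4.95 and 5.53.

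Between BASCs from BASCs-Tracer and AT2 cells from Sftpc-TD, 6 of 10 members were higher and 0 lower, beside 9.90% and 9.17% of 10507 genes. The members' median log2 ratio was 1.90 and that of all genes 0.01. Cxcl2 (1.12), Cxcl5 (4.68), Cxcl10 (3.61), Ccl2 (2.69), Ccl20 (2.76) and Ccrl2 (2.88) passed, and Cxcl1 (0.55), Cxcl16 (0.05), Cxcl17 (0.21) and Cx3cl1 (0.08) were within 2-fold. Both groups expressed the alveolar marker Sftpc at similar levels (174513 and 160638 CPM). With 10 CPM added, 3 of 10 passed. Without plate 1 the log2 ratio of Ccl2 was -0.00085 and that of Ccrl2 1.32, and without plate 2 that of Ccl20 was -0.36.

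Between club cells from BASCs-Tracer and from Scgb1a1-TD, 3 members were higher and 3 lower of 9 measured, beside 21.1% and 29.1% of 10475 genes, with 15 and 97 cells. Cxcl1 (5.51), Cxcl2 (3.33) and Cxcl10 (1.83) were higher and Cxcl5 (-1.57), Cxcl17 (-1.39) and Ccl20 (-2.04) lower. The ratio of Cxcl1 was between 3.16 and 7.02 whichever plate was left out or when only plate 2 was used. Cxcl2 turned to -2.64 without plate 2, and Cxcl5 to 3.06 on plate 2 alone. The club cells from BASCs-Tracer also carried more alveolar RNA than those from Scgb1a1-TD (Sftpc at 14297 and 4062 CPM), and its part in these ratios was not tested.

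Within BASCs-Tracer, BASCs against club cells, 2 members were higher (Ccl2 at 2.77 and Ccl20 at 2.43) and 3 lower (Cxcl2 at -1.001, Cxcl10 at -1.06 and Cx3cl1 at -3.12), beside 31.8% and 21% of 10613 genes. Cx3cl1 was at 10 CPM in 6 of 15 club cells and 15 BASCs (10.9%), while Ccl2 and Ccl20 rested on 3 and 1 BASCs at that level. Cxcl1 (-0.77) was within 2-fold. Cxcl2 lay at the limit and turned to 4.63 without plate 2, and Cxcl10 turned to 0.54 without the highest cell of each group. The count of 5 ranged from 1 with 10 CPM added to 8 without plate 1.

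Within Scgb1a1-TD, BASCs against club cells, 7 of 9 measured members were lower in BASCs and 1 was higher, beside 24.7% and 17.2% of 10631 genes. Lower were Cxcl2 (-2.02), Cxcl5 (-5.77), Cxcl10 (-3.91), Cxcl17 (-2.04), Cx3cl1 (-3.84), Ccl20 (-2.88) and Ccrl2 (-4.98), and Cxcl1 was higher (1.09, 11.9 against 5.07 CPM). At 10 CPM Cxcl1 was carried by 5 of 38 BASCs and 3 of 97 club cells. Of the club cells, 6 carried Cxcl2, 6 Cxcl10 and 3 Ccl20. Without cells with 50 CPM of leukocyte markers, Lcp1 included, the ratio of Ccl20 changed sign. The median of the members was -2.88 and that of all genes -0.12. With 10 CPM added 5 of 9 passed. Ciliated against club cells of the same line gave 6 of 9 members lower and 0 higher, beside 14.9% and 43% of 12011 genes. These were Cxcl1 (-1.93), Cxcl2 (-3.45), Cxcl5 (-5.77), Cxcl10 (-3.63), Cx3cl1 (-2.01) and Ccl20 (-2.79), while Cxcl17 (0.34), Cxcl16 (-0.76) and Ccrl2 (-0.94) were within 2-fold. The ratios of Cxcl1 and Ccl20 rested on the 3 club cells each that carried them, and most of that Cxcl1 came from 1 cell.

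Within Sftpc-TD, BASCs against AT2 cells, 4 of 7 measured members were higher (Cxcl10 at 3.51, Cxcl17 at 1.26, Cx3cl1 at 1.55 and Ccrl2 at 2.18) and 0 lower, beside 16.6% and 35.4% of 10488 genes. Without the highest cell of each group 1 passed, and Cxcl10, Cx3cl1 and Ccrl2 turned to -0.59, -1.43 and -2.28. The Ccrl2 of these BASCs came from 1 cell at 728 CPM that also held 7108 CPM of leukocyte markers. Cxcl1 (0.24) and Cxcl2 (0.73) were within 2-fold.

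Leukocytes make many of the same chemokines, so markers of leukocytes were measured beside them. A list of 7 markers (Ptprc, Tyrobp, Fcer1g, Coro1a, Laptm5, Cd52 and Cd53) summed to 56.3 CPM in BASCs from BASCs-Tracer, 0.176 in BASCs and 5.97 in club cells from Scgb1a1-TD, 4.15 in AT2 cells and 336 in BASCs from Sftpc-TD. The median cell was at 0 in each of these groups, and the sum reached 50 CPM in 16 of 480 cells: 7 BASCs and 1 club cell from BASCs-Tracer, 6 club cells from Scgb1a1-TD, and 1 BASC and 1 AT2 cell from Sftpc-TD. Lcp1, also on the list, was left out after it was seen at 10 CPM in 61.2% of all cells. Of the BASCs, 3 stood far above the others, at 7108, 4208 and 2701 CPM. The same 3 cells also held epithelial RNA, with Sftpc at 64714.5, 125880 and 28753.5 CPM and Scgb1a1 at 570, 5490 and 104074 CPM. The cell at 4208 CPM held the highest Ccrl2 and Cxcl2 of its group (1619 and 861 CPM), and the cell at 2701 CPM held 745 CPM of Cxcl10 and 383 CPM of Ccl2. Their Cxcl1 was 0, 0 and 9.91 CPM. Of the 48 BASCs from BASCs-Tracer with 100 CPM of Cxcl1, 4 held 50 CPM of these markers (8.33%, beside 3.33% of the other BASCs) and their median was 0, and of the 33 such AT2 cells none did. Of the 22 BASCs with 100 CPM of Cxcl2, 18.2% did and 2.59% of the others, and of the 18 with 100 CPM of Ccrl2, 11.1% and 4.17%. Without the 16 cells the log2 ratio between BASCs from BASCs-Tracer and Scgb1a1-TD was 3.63 for Cxcl1, 4.11 for Cxcl2, 4.71 for Ccrl2 and 2.07 for Ccl2.

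Of the other chemokine ligands, 3 of 9 CXC and CX3C genes and 8 of 18 CC and XC genes reached 5 CPM in some group of 5 or more cells. Cxcl15, a lung-specific chemokine, exceeded all members in the groups given here, at 6922 CPM in BASCs from BASCs-Tracer, 7823 in BASCs and 1798 in club cells from Scgb1a1-TD and 4636 in AT2 cells. In ciliated cells from Scgb1a1-TD it was at 165 CPM, below Cxcl17. Cxcl3, a neutrophil attractant close in sequence to Cxcl1 and Cxcl2, was at 7.03, 4.91, 0.123 and 1.94 CPM in the same groups. Among the CC ligands the highest in any group were Ccl6, Ccl27a, Ccl17 and Ccl9, in that order. Of these, Ccl6 and Ccl9, products of myeloid cells, were at 45.8 and 14.4 CPM in BASCs from Sftpc-TD and both at 0.0104 CPM in its AT2 cells. Levels of Ccl27a and Ccl17 are not given here. Between these groups 5 of 7 measured CC and XC ligands were higher in BASCs and 1 lower, beside 16.6% and 35.4% of all measured genes. Of 22 chemokine receptors 6 reached 5 CPM, with Ccr2, Ccr1, Ccr9 and Ackr2 the highest. Ccr1 and Ccr2 were at 21.9 and 30.2 CPM in BASCs from Sftpc-TD, 7.51 and 6.17 in BASCs from BASCs-Tracer and 0 in BASCs from Scgb1a1-TD. The same 11 BASCs from Sftpc-TD held the highest sum of leukocyte markers, with 1 cell at 7108 CPM and the median cell at 0. The part of such cells in these levels was not tested.

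Genes around NF-kB and mRNA decay were read beside Cxcl1 and Cxcl2. Between BASCs from BASCs-Tracer and Scgb1a1-TD, 4 of 13 measured NF-kB feedback and target genes were 2-fold or more higher and 0 lower, with a median log2 ratio of 0.63. Over all measured genes of this pair 21.1% were higher and the median was 0.18, the background for each count of these lists. Nfkbia, the inhibitor induced by NF-kB itself, was at 1471 and 502 CPM and at 1002 CPM in AT2 cells from Sftpc-TD, and Nfkbiz was at 251, 97.9 and 230 CPM. In club cells from Scgb1a1-TD, where Cxcl1 was also low, these were at 364 and 35 CPM. Icam1, an adhesion molecule, and Sod2 were within 2-fold between the BASC groups (330 and 184 CPM, and 120.8 and 189 CPM). Immediate early genes, which rise during tissue dissociation, were 2-fold or more higher in 4 of 11 measured, with a median of 0.85, although Fos was at 3044 and 2602 CPM. Of the mRNA decay regulators of chemokine transcripts 3 of 4 were higher, with Zfp36 at 553 and 270 CPM, and of 11 measured genes of the IL-17 and IL-1 pathways 4 were higher, with a median of 0.41. Their part in the levels of Cxcl1 and Cxcl2 was not tested.

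Across cells the members moved together little. Spearman rho of log2(CPM + 1) was taken within 7 sets of cells of 1 line, sub-type and plate, 392 cells in all, and averaged by cell number, as a description without a test. Among the 45 pairs of members Cxcl1 and Cxcl2 had the highest mean rho, 0.18 (0.24 after thinning), with 0.27 and 0.19 in BASCs from BASCs-Tracer on plates 1 and 2, 0.30 and 0.22 in AT2 cells on plates 4 and 5, and -0.13 to 0.06 in the 3 sets from Scgb1a1-TD. Other pairs were at or below 0.14, and in sparse counts such values are no finding. At 10 CPM, Cxcl2 was carried by 22 of the 59 Cxcl1-carrying BASCs from BASCs-Tracer (37.3%) and by 16.5% of the others. In AT2 cells it was carried by 14 of 36 (38.9%) and by 7.96% of the others. Ccrl2 showed no such difference in BASCs from BASCs-Tracer (16.9% and 18.99%), nor did Cxcl16 (52.5% and 48.1%). Mean rho with the total reads of a cell was 0.00965 for Cxcl1 and 0.00473 for Cxcl2. Over the 7 sets it ran from -0.180 to 0.352 for Cxcl1 and from -0.131 to 0.205 for Cxcl2.

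**Figure D4:**
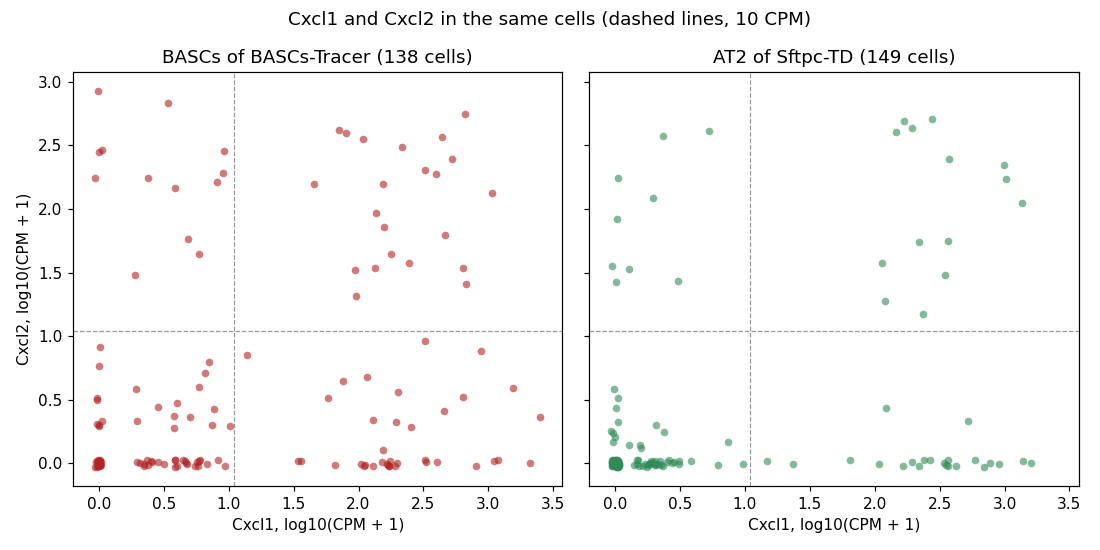
Cxcl1 against Cxcl2 in the same cells, both as log10(CPM + 1), for BASCs from BASCs-Tracer and AT2 cells from Sftpc-TD; dashed lines mark 10 CPM and points are shifted slightly at random. The upper right field holds 22 and 14 cells, and many cells lie along the axes with 1 gene alone.

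The genes most like a member were ranked by mean rho over the same sets among 7310 genes with a read in 20% or more of cells, for the 6 members that also met that share. For Cxcl1 these were Ppp1r15a, a stress-response phosphatase subunit (0.23), Myo10, Mxd1, Dpf2 and Acot9, and for Cxcl2 Evi5 (0.24), the kinase gene Pim3 (0.23), Dot1l, Cpt2 and Tsc2. For Cxcl17 they were Lipe (0.26), the prostaglandin synthase gene Ptges (0.25), the mucin gene Muc4 (0.24), Tmem176a and Idi1. For Cxcl16 the list opened with Myc (0.23), for Cx3cl1 with Mospd1 (0.23) and for Ccrl2 with Serpinh1 (0.21), followed by Ier3 (0.20). The 99th percentile over all ranked genes was 0.15 for Cxcl1 and 0.17 for Cxcl17, so the leading values are the upper end of a narrow spread.

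**Figure D5:**
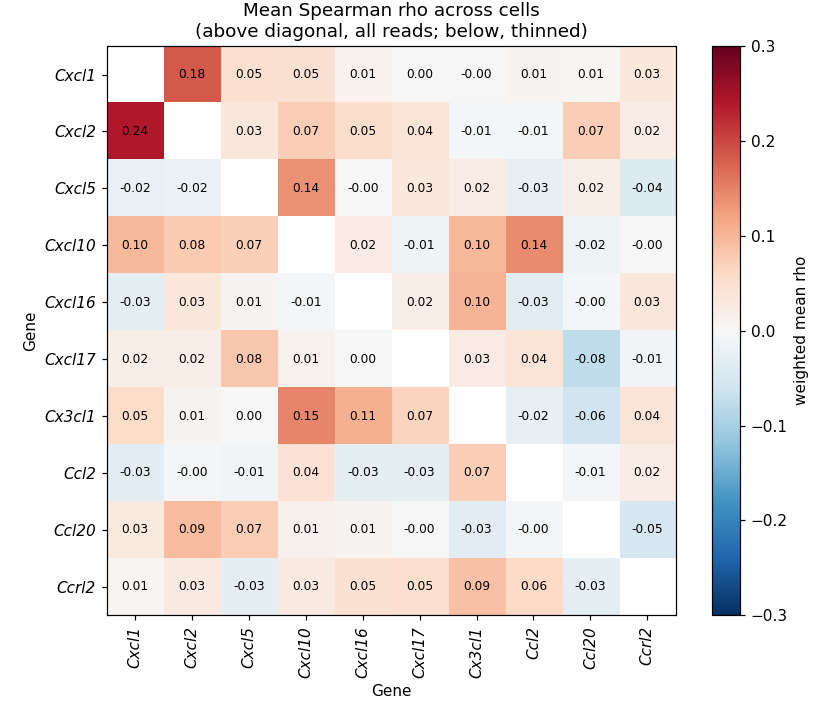
Weighted mean Spearman rho between members across cells within line, sub-type and plate, from all reads above the diagonal and after thinning each cell to 100000 reads below it. Cxcl1 with Cxcl2 is the darkest field (0.18 and 0.24), and most other fields lie near 0.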

How the data were processed

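HISAT2 was the aligner, GRCm38 the genome and HTSeq the counter, per the submitters' processing notes (versions not given in the sources used here). Raw read counts make up the authors' deposited table, 1 per gene and cell, without molecular identifiers. Its header has no name over the gene identifiers, so its names were read from the first count column on, and lines and sub-types came from the labels. Symbols came from GENCODE M21. The members and gene lists were chosen with earlier results of these data known. All 10 members are described; the further genes are the 5 most like each member and the highest of each list. Counts were summed per group and given as CPM, and ratios as log2 of CPM + 1, with Python 3.11.15, numpy 2.4.6, pandas 2.3.3 and scipy 1.17.1. For shares at 1 depth each cell was thinned to 100000 reads. No doublet caller was run, and 0 pairs of cells had identical counts. The ratio and correlation steps were tested on simulated data. Reads of the similar genes Cxcl1, Cxcl2 and Cxcl3 could be split between copies, and PCR copies are not independent molecules. Alternatives were other scalings, 10 CPM added, cell filters, plates or the highest cell left out, and other limits. The level of 10 CPM for a cell and the marker filter without Lcp1 were chosen after seeing the data.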

Additional observations from a re-analysis of the deposited data

How the results depend on the processing

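Each log2 ratio and each count of members past the limit was recomputed under every alternative that left 5 or more cells in both groups. Of the log2 ratios, 494 stayed within 1.5 times, 192 moved further without a called ratio changing sign and 23 called ratios changed sign; of the counts, 79 stayed within 1.5 times and 12 did not. The median over all genes shifted by -0.46 to 0.32 (log2) under median-of-ratios scaling and by -0.59 to 0.24 with totals lacking mitochondrial genes and the 10 most abundant genes, and no member past the limit changed sign under either. With 10 CPM added, which lowers ratios of low genes by construction, the count was 5 between the BASC groups of BASCs-Tracer and Scgb1a1-TD, 3 against AT2 cells, 1 against club cells of BASCs-Tracer and 5 for BASCs against club cells of Scgb1a1-TD. At a limit of 4-fold it was 3 between the club cells, 3 within BASCs-Tracer and 2 within Sftpc-TD. Within BASCs-Tracer it was 3 with the other totals, 3 without the highest cell and 8 without plate 1; within Sftpc-TD it was 1 without the highest cell and 2 without cells with 50 CPM of leukocyte markers, Lcp1 included. Of the ratios that changed sign, Cx3cl1 between the BASC groups was -0.30 without plate 1 and -3.39 on the shared plate. Against AT2 cells Ccl2 was -0.19 without marker cells and -0.00085 without plate 1, and Ccl20 was -0.36 without plate 2. Between club cells Cxcl2 was -2.64 without plate 2, Cxcl5 3.06 on the shared plate, and Ccl20 0.83 without plate 3 and 1.09 on the shared plate. Within BASCs-Tracer Cxcl2 was 4.63 without plate 2, and Cxcl10 0.54 without the highest cell and 0.12 without plate 2. Within Scgb1a1-TD Ccl20 without marker cells was 0.058 for BASCs and 0.10 for ciliated cells against club cells, and 0.12 for ciliated cells without plate 3. Within Sftpc-TD, without marker cells, the highest cell or plate 4, Cxcl10 was -1.28, -0.59 and -1.50; without marker cells or the highest cell Cx3cl1 was -3.26 and -1.43 and Ccrl2 -3.41 and -2.28, and Ccrl2 was -2.76 without marker cells chosen without Lcp1, a filter added after seeing the data. These settings leave out cells, and the cause of each change was not tested. The marker filter with Lcp1 left too few club cells of BASCs-Tracer for a value. No paired analysis was possible because the labels pair no cells and the values come from no test between samples; the values on shared plates stand with the comparisons.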
